A study of Mus musculus with 4 samples.

Results

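Genes of the extracellular matrix and its remodelling (10 of the 28692 genes in the table) were followed through monocytes and macrophages of the mouse colon: the matrix proteins Fn1, Vcan, Thbs1, Tgfbi and Ecm1, the crosslinking enzyme F13a1, the proteases Mmp12, Mmp13 and Mmp14, and the protease inhibitor Timp2. The genes were chosen by function with earlier results of these data known, among them that F13a1 and Ecm1 differed between exposures in a way that depended on the class of the cell. The levels of DEP against PBS mice within a class are therefore given as a description without a test, whereas the comparison of cell classes was tested. The cells came from the colon lamina propria of 4 male C57/Bl6N mice, which carried no genetic change named in the labels and whose age the labels do not give. The 2 exposed mice (DEP 11 and DEP 13) had been gavaged with 12 µg of diesel exhaust particles in 200 µL of phosphate-buffered saline 5 days a week over some 6 months, and the 2 control mice (PBS 2 and PBS 3) with phosphate-buffered saline alone. Each mouse was 1 library of cells sorted for CD11b and either Ly6C or CD64, made with 10x Genomics 3' chemistry, in which each molecule is counted once by a unique molecular identifier (UMI).

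The extracellular matrix is the mesh of collagens, glycoproteins and proteoglycans on which tissue cells rest. Macrophages contribute to it by secreting glycoproteins and crosslinkers, and they take it apart with metalloproteinases, which tissue inhibitors hold in check. Blood monocytes, marked by the surface protein gene Ly6c2, enter the lamina propria and turn into resident macrophages, which lose Ly6c2 and gain the complement gene C1qa.

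Of 6954 barcodes, 4771 had at least 1000 UMIs and 4335 were analysed after filters and after removal of 288 cells in 7 clusters whose leading genes marked lymphocytes, plasma cells, epithelium or stroma. The mice gave 599 to 1406 cells with medians of 5354 to 7207 UMIs, and DEP 13 had the fewest cells and hence the least precise values. In the table, 36 barcode codes occurred in more than 1 library. Cells were divided at 1 cut for Ly6c2 (1.85 UMIs per 10000) and 1 for C1qa (20.5 UMIs per 10000), neither of which is among the 10 genes. This gave 868 Ly6c2-high C1qa-low cells (hereafter Ly6c2-high), 2334 C1qa-high Ly6c2-low cells (hereafter C1qa-high), 295 cells high and 838 cells low for both. The classes are ranges and not types: 816 cells (18.8%) lay within 0.5 log2 units of the Ly6c2 cut and 599 (13.8%) of the C1qa cut. The summed level of 8 monocyte markers was 6623 to 7935 UMIs per 1000000 UMIs of the summed cells (CPM) in Ly6c2-high and 594 to 874 CPM in C1qa-high cells, and that of 12 macrophage markers was 12664 to 19337 and 52110 to 61487 CPM. Collagen gene Col1a1, which defines fibroblasts, stood at 0.265 to 0.724 CPM over all analysed cells, and the summed level of 17 stromal markers was 50.6 to 63.4 CPM, with none of the 17 at 0.

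The genes lie on 7 chromosomes (build mm10, GENCODE M21). Mmp13 (chr9:7272514-7283331, plus strand) and Mmp12 (chr9:7344381-7369499, plus strand) lie in the same cluster of metalloproteinase genes, and F13a1 (chr13:36867178-37050244, minus), Tgfbi (chr13:56609523-56639562, plus) and Vcan (chr13:89655312-89742509, minus) share chromosome 13. The others are Fn1 (chr1:71585520-71653200, minus), Thbs1 (chr2:118111876-118127133, plus), Ecm1 (chr3:95734147-95739569, minus), Timp2 (chr11:118301069-118355740, minus) and Mmp14 (chr14:54431612-54445364, plus). Promoter sequences of 8 of the 10 genes were found in RefSeq (GRCm38.p6). The 150 bases before the annotated start are printed for members that were higher in Ly6c2-high cells (F13a1, Vcan) or in C1qa-high cells (Ecm1, Mmp12, Mmp13), so that those of one direction can be read side by side. Capitals mark matches, on either strand, to TGANTCA (the motif of AP-1 factors), GAGGAA (the core bound by PU.1, a factor of the monocyte lineage), TTGCNNAA (C/EBP factors) or TATAAA (the TATA box).
F13a1, chr13:37050245-37050394, minus strand: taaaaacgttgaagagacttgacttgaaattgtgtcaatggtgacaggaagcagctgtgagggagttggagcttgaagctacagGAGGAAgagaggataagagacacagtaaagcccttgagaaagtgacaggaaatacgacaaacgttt
Vcan, chr13:89742513-89742662, minus strand: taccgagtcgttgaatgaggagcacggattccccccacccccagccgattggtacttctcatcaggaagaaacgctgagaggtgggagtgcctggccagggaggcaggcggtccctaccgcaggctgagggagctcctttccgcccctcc
Ecm1, chr3:95739570-95739719, minus strand: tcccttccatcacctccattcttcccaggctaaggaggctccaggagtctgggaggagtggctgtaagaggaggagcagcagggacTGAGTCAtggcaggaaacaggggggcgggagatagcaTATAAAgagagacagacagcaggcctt
Mmp12, chr9:7344247-7344396, plus strand: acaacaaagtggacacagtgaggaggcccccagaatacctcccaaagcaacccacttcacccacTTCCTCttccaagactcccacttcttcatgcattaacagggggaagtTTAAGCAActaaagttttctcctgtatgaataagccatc
Mmp13, chr9:7272364-7272513, plus strand: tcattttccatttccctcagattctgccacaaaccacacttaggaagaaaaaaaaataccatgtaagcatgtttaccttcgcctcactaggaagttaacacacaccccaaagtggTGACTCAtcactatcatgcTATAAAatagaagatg
Ecm1 and Mmp13 both held TGANTCA and TATAAA, which 6.75% and 12.4% of all 32851 promoters in the table held within the 250 bases before the start. In Ecm1 the matches began at -64 and -27, and in Mmp13 at -35 and -16, counted from the start. F13a1 and Mmp12 each held 1 match to GAGGAA (23.3% of promoters) and Mmp12 held 1 to TTGCNNAA (9.56%). No match was found in the same window of Vcan, Tgfbi, Mmp14 or Timp2. A match is a description of these letters and not a site of binding.

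The 10 genes divided between the classes. Fn1, F13a1, Vcan and Thbs1 were higher in the Ly6c2-high cells of 4 of 4 mice, and Ecm1, Mmp12, Mmp13, Mmp14 and Timp2 were higher in the C1qa-high cells of 4 of 4 mice, whereas Tgfbi differed least. In edgeR's quasi-likelihood test on UMI counts summed per mouse and class, with the mouse as a block, 3 of the 9 genes that passed the filter on low values were higher in Ly6c2-high cells and 6 were higher in C1qa-high cells at a false discovery rate (FDR) of 5%. The background was high: 40.0% of the 6794 genes tested were called, 20.9% higher in Ly6c2-high and 19.1% higher in C1qa-high cells. Vcan was found in too few cells to be tested.

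**Figure D1:**
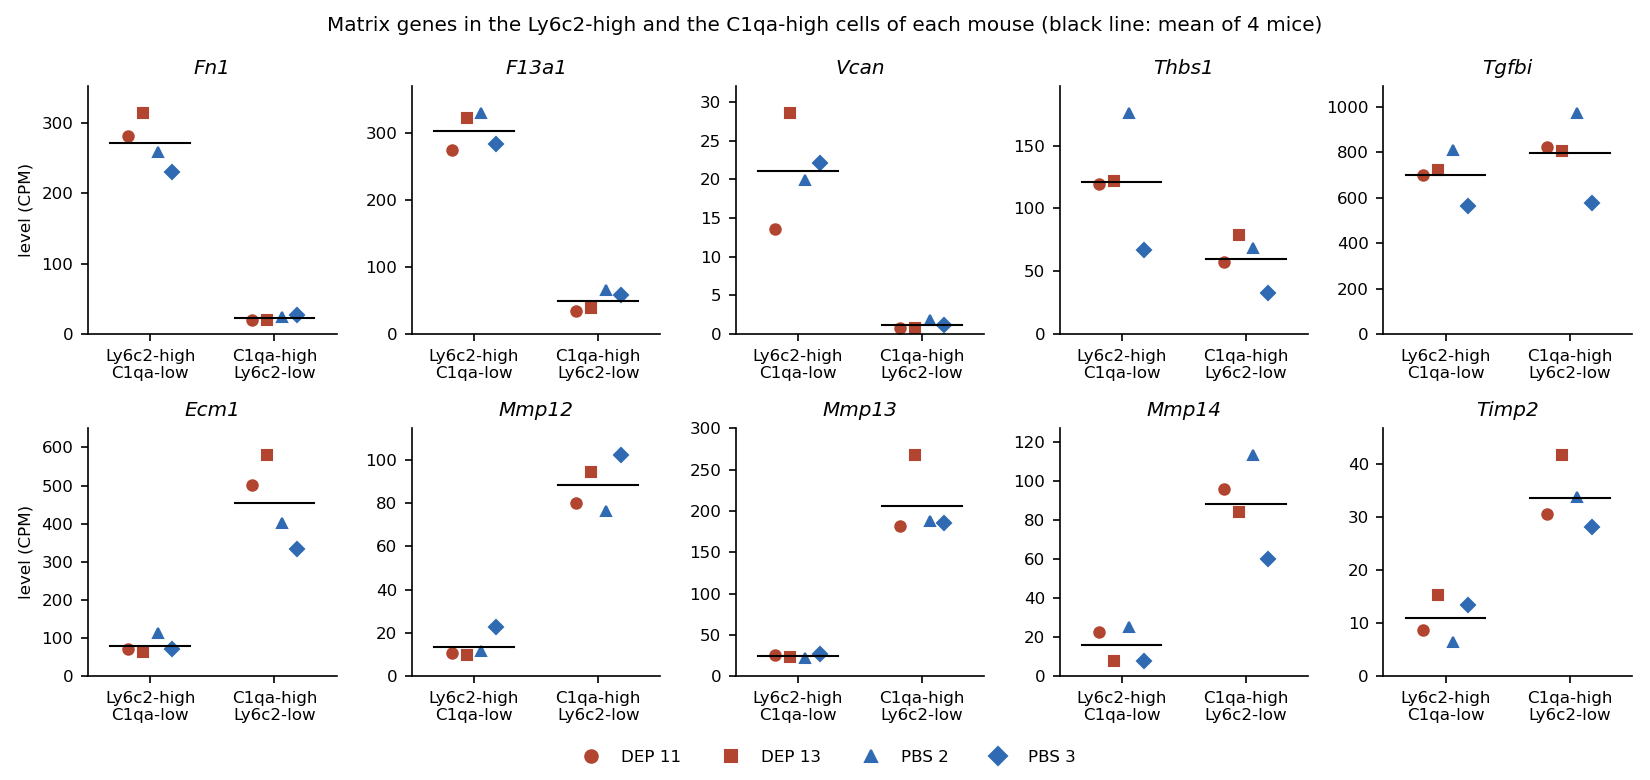
Level (CPM, linear axes from 0) of the 10 genes in Ly6c2-high C1qa-low and C1qa-high Ly6c2-low cells of each mouse. Points are mice and black lines the mean of 4. For the 8 genes other than Thbs1 and Tgfbi the classes do not overlap, from Fn1 (231 to 315 against 19.4 to 26.8 CPM) to Timp2 (6.40 to 15.3 against 28.2 to 41.9 CPM).

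Fn1, which encodes fibronectin, an adhesive glycoprotein to which integrins bind, was higher in Ly6c2-high cells. Its level in Ly6c2-high cells was 280.8 and 315 CPM in the mice DEP 11 and DEP 13 and 259 and 231 CPM in the mice PBS 2 and PBS 3. In C1qa-high cells it was 19.4, 19.8, 24.3 and 26.8 CPM in the same order. Each mouse thus showed a difference of 8.61 to 15.9 fold. The log2 fold change of Ly6c2-high over C1qa-high cells was 3.50 (SE 0.11, n = 4 mice, edgeR quasi-likelihood test, Benjamini-Hochberg adjusted p = 2.94e-17). With every cell thinned to 1000 UMIs and the classes cut again it was 2.11. In the original classes the thinned value was 3.09, an alternative added after seeing the data. The difference passed in both, and the first of them changed depth and classes at once. At least 1 Fn1 UMI was found in 50.6% of Ly6c2-high cells, in 12.9% of C1qa-high cells and in 36.8% of cells low for both, beside 15.5% to 38.4% of removed lymphoid cells, whose levels are given further on.

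F13a1 encodes the A subunit of coagulation factor XIII, a transglutaminase that crosslinks fibrin and fibronectin. It stood at 274, 322, 330.4 and 283 CPM in the Ly6c2-high cells of DEP 11, DEP 13, PBS 2 and PBS 3, and at 34.3, 38.8, 65.1 and 58.5 CPM in their C1qa-high cells. The log2 fold change was 2.55 (SE 0.10, edgeR adjusted p = 2.84e-15), and each mouse showed a difference of 4.84 to 8.30 fold. The thinned values were 1.68 and 2.06, and both passed. F13a1 UMIs were present in 57.1% of Ly6c2-high and 22.6% of C1qa-high cells.

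Vcan encodes versican, a large hyaluronan-binding proteoglycan. Only 133 UMIs were counted in all analysed cells, and 63.9% of them lay in Ly6c2-high cells, at 13.6, 28.6, 19.9 and 22.1 CPM, against 0.726, 0.761, 1.80 and 1.17 CPM in C1qa-high cells. Every mouse was higher in its Ly6c2-high cells, but the C1qa-high values rest on 2 to 11 UMIs a mouse.

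Thbs1 encodes thrombospondin 1, a glycoprotein of platelets and monocytes that binds matrix and activates latent TGF-β. Its levels in Ly6c2-high cells were 120, 122, 176 and 67.2 CPM and in C1qa-high cells 57.3, 79.2, 68.4 and 32.9 CPM. Each mouse was 1.54 to 2.58 fold higher in its Ly6c2-high cells, yet the highest C1qa-high value, that of DEP 13, exceeded the Ly6c2-high value of PBS 3. The log2 fold change was 1.06 (SE 0.11, edgeR adjusted p = 2.17e-08). When every cell was thinned to 1000 UMIs and the classes were cut again, it was 0.46 and no longer passed (edgeR adjusted p = 0.378), whereas in the original classes the thinned value was 0.93 and passed (edgeR adjusted p = 0.000111).

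Tgfbi, whose product is a TGF-β-induced adhesion protein, was found in 90.8% of all analysed cells. It stood at 702, 721, 809 and 564 CPM in Ly6c2-high and at 824, 807, 975 and 575 CPM in C1qa-high cells. C1qa-high cells were thus 1.02 to 1.20 fold higher, less than the spread between mice, in which PBS 3 was lowest in both classes. The log2 fold change was -0.20 (SE 0.05, edgeR adjusted p = 0.0029), and the difference did not pass without the mouse as a block (adjusted p = 0.296) or after thinning with the classes cut again (adjusted p = 0.22), whereas it passed after thinning in the original classes (-0.30, adjusted p = 0.00358).

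Ecm1 encodes extracellular matrix protein 1, a secreted glycoprotein that binds other matrix components. It stood at 502, 581, 403 and 332 CPM in the C1qa-high cells of DEP 11, DEP 13, PBS 2 and PBS 3, against 70.0, 62.9, 112 and 71.2 CPM in their Ly6c2-high cells. No Ly6c2-high sum came near a C1qa-high sum. The log2 fold change was -2.41 (SE 0.12, edgeR adjusted p = 2.4e-13). C1qa-high cells held 84.1% of the Ecm1 UMIs, and Ecm1 was found in 73.4% of them. By share of cells this is no more than in the deeper plasma cells that were removed (79.1%), so the difference rests on the CPM and not on that share.

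Mmp12 (macrophage elastase), Mmp13 (collagenase 3) and Mmp14 (a membrane-anchored metalloproteinase that activates pro-MMP2) shared this direction. Mmp13 stood at 181, 268, 188 and 185 CPM in C1qa-high cells and at 25.3, 22.9, 21.3 and 26.1 CPM in Ly6c2-high cells, a difference of 7.10 to 11.7 fold within a mouse (log2 fold change -3.06, SE 0.11, edgeR adjusted p = 6.75e-16). Where the classes were cut again after thinning, the Ly6c2-high cells of the 4 mice held 1 Mmp13 UMI, so no fold is read there. Mmp12 stood at 80.1, 94.4, 76.4 and 103 CPM against 10.7, 9.54, 11.4 and 22.9 CPM (log2 fold change -2.63, SE 0.15). Mmp14 stood at 95.8, 83.7, 113 and 59.7 CPM against 22.3, 7.63, 24.9 and 7.91 CPM (log2 fold change -2.42, SE 0.15). In none of the 3 proteases did the mice of one class reach those of the other.

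Timp2 encodes an inhibitor of metalloproteinases that also takes part in the activation of pro-MMP2 by MMP14. With 714 UMIs in all, it stood at 30.7, 41.9, 33.8 and 28.2 CPM in C1qa-high and 8.74, 15.3, 6.40 and 13.4 CPM in Ly6c2-high cells. The difference was 2.10 to 5.28 fold within a mouse (log2 fold change -1.69, SE 0.21, edgeR adjusted p = 6.12e-07).

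For 8 of the 10 genes the low side of the difference lay near or below the level in the removed lymphoid cells. These were T and NK cells (56 cells, median 3942 UMIs), B cells (71 cells, median 5432) and plasma cells (86 cells, median 20099). Ecm1 stood at 142, 202 and 104 CPM in them. The 62.9 to 112 CPM of Ly6c2-high cells (median 4840 UMIs) lay within or below this range and is not read as expression. Whether the lymphoid levels came from free RNA, doublets or own expression was not tested. Mmp13 stood at 27.8, 111 and 42.5 CPM in the 3 groups, and Mmp12 at 27.8, 18.2 and 14.2 CPM, and no Ly6c2-high sum of either was above the highest of these values. Fn1 stood at 101, 54.5 and 37.7 CPM in the 3 groups, above every C1qa-high sum (median 7247.5 UMIs), and F13a1 at 118, 74.9 and 42.5 CPM, a range that the C1qa-high sums did not exceed. The low sides of Vcan, Mmp14 and Timp2 likewise held no sum above the highest of the 3 groups (4.54, 65.8 and 31.8 CPM). Parts of the high sides of Mmp14 and Timp2 lay under the same values. These were the C1qa-high sums of PBS 3 for Mmp14 (59.7 CPM) and of DEP 11 and PBS 3 for Timp2 (30.7 and 28.2 CPM). By share of cells, an F13a1 UMI was found in 32.1% of T and NK, 21.1% of B and 37.2% of plasma cells, against 22.6% of C1qa-high cells. An Fn1 UMI was found in 25.0%, 15.5% and 38.4% of the 3 groups and an Ecm1 UMI in 33.9%, 52.1% and 79.1%. Thbs1 and Tgfbi stood above these groups in most sums. Thbs1 stood at 41.7, 27.2 and 35.4 CPM in the 3 groups, which the C1qa-high cells of every mouse but PBS 3 exceeded. Tgfbi stood at 255 to 540.1 CPM in the 3 groups, below every sum of either class. In the 72 removed epithelial cells Mmp12 stood at 113 CPM, above every C1qa-high sum. Ecm1 (355 CPM) and Mmp14 (73.3 CPM) in these cells exceeded the C1qa-high sum of PBS 3 alone. Mmp13 (162 CPM) and Timp2 (16.9 CPM) in these cells were below every C1qa-high sum. In barcodes under 500 UMIs, which can hold free RNA or damaged cells, Thbs1 stood at 386 to 629 CPM, above every class sum, and Tgfbi at 491 to 871 CPM, which was above the Ly6c2-high sum in every mouse but PBS 3.

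**Figure D2:**
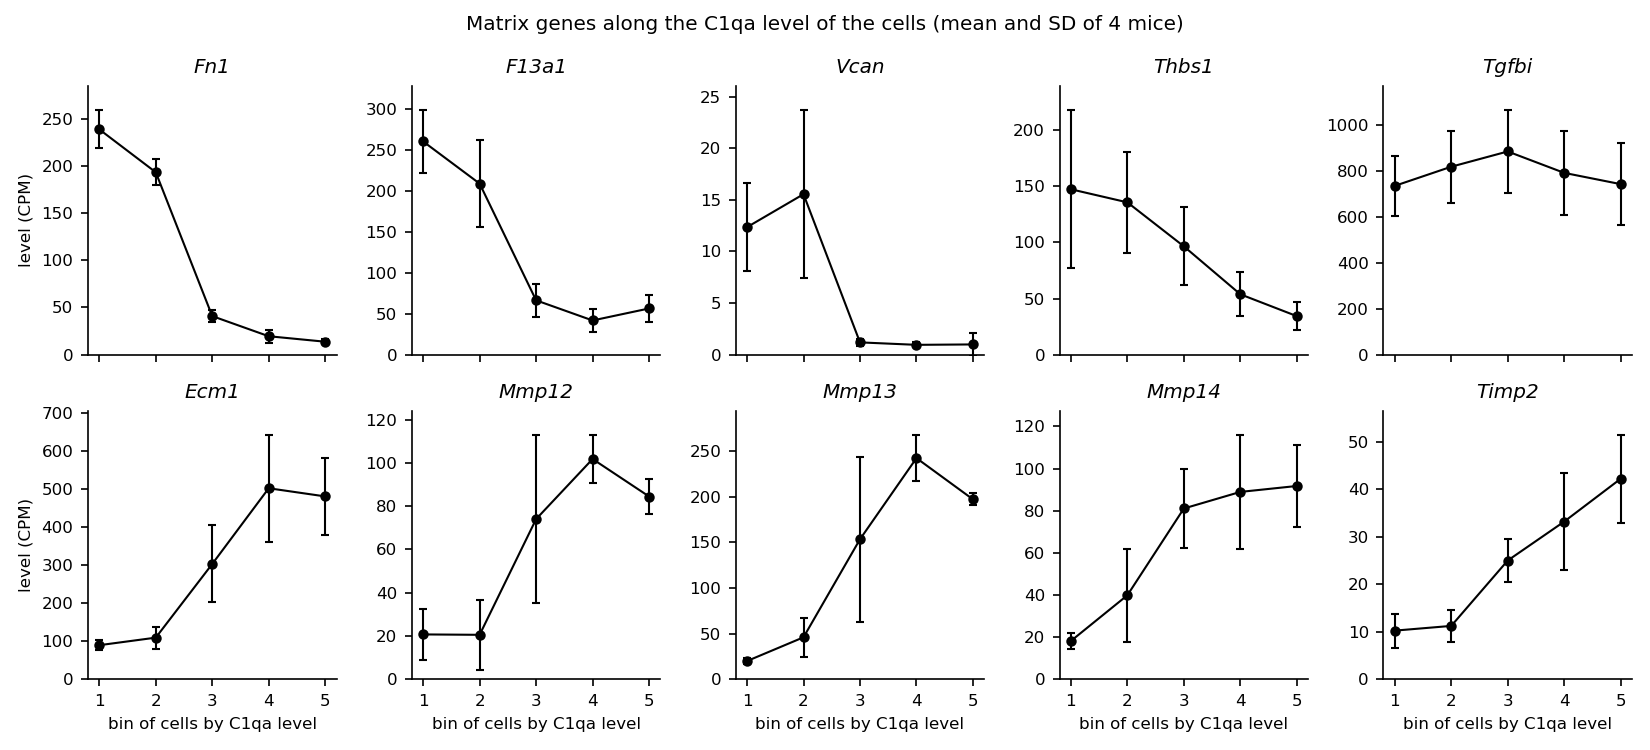
Level (CPM, mean and SD of 4 mice, linear axes from 0) of the 10 genes in 5 bins of the analysed cells ordered by C1qa level, 867 cells in each. By the mean, Fn1 and F13a1 are highest in bin 1, Mmp12 and Mmp13 in bin 4 and Timp2 in bin 5, and Tgfbi stays between 734 and 883 CPM. Ecm1 is high in bins 4 and 5, whose means (503 and 481 CPM) lie within an SD of each other.

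Along the C1qa level some members changed by steps and others evenly, which is given as a description. In 5 bins of 867 cells ordered by C1qa, Fn1 had means of 239 ± 20.1, 193 ± 13.8, 40.7 ± 6.26, 19.4 ± 6.78 and 13.6 ± 2.76 CPM (SD, n = 4 mice), so the widest step lay between bins 2 and 3. F13a1 went from 260 ± 37.9 to 41.6 ± 14.5 CPM in bin 4 and stood at 56.2 ± 16.4 CPM in bin 5. Mmp13 went from 19.8 ± 3.03 to 243 ± 25.4 CPM in bin 4 and stood lower in bin 5 (197 ± 6.65 CPM). Ecm1 went from 89.3 ± 13.2 to 503 ± 140.4 CPM in bin 4 and 481 ± 102 CPM in bin 5, without a common direction. From bin 4 to bin 5 it went from 514 to 570 CPM in DEP 11 and from 418 to 502 CPM in PBS 2. In DEP 13 it went from 696 to 519 CPM and in PBS 3 from 382 to 334 CPM. Timp2 and Thbs1 had opposite orders over the 5 bins: the mean of Timp2 went from 10.2 to 42.2 CPM and that of Thbs1 from 148 to 34.3 CPM.

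By the mean of the 4 mice, cells high for both class genes were nearer to C1qa-high than to Ly6c2-high cells in each of the 10 members. In these 295 cells Fn1 was at 11.4 to 57.6 CPM, F13a1 at 57.0 to 88.8 CPM, Ecm1 at 171 to 366 CPM and Mmp13 at 57.0 to 191 CPM. The lowest of these values for Ecm1, F13a1, Fn1 and Mmp13 came from DEP 13, which had only 17 such cells. Cells low for both genes held Fn1 at 159 to 187 CPM and F13a1 at 141 to 237 CPM, and by the mean of the 4 mice Thbs1 was highest there, at 113 to 267 CPM, with PBS 2 highest. In DEP 13 Thbs1 stood at 114 CPM there and at 122 CPM in Ly6c2-high cells.

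Within a class, some members were found in the same cells. In Ly6c2-high cells with an F13a1 UMI, Fn1 was 1.53 to 2.32 fold its level in cells without one, in 4 of 4 mice. In C1qa-high cells with an Ecm1 UMI, Mmp13 stood at 205, 315, 209 and 221 CPM, against 76.7, 54.8, 62.6 and 82.0 CPM in those without. The values without Ecm1 lay within the 27.8 to 111 CPM of the removed lymphoid cells, and those with Ecm1 lay above it. Mmp12 was higher in the cells with Ecm1 in 4 of 4 mice too, by 1.07 to 3.99 fold, but in PBS 3 the values were 104 and 97.2 CPM. F13a1 stood at 0.482 to 0.546 times its level in cells without Ecm1, but its levels on both sides (28.8 to 58.0 and 58.5 to 106 CPM) lay within or below those of the removed lymphoid cells, so nothing is read from this ratio. Tgfbi (0.914 to 1.06 times) and Timp2 (0.809 to 1.44 times) had no common direction. Cells with an Ecm1 UMI were also deeper, with medians of 7168 to 9137 against 4335 to 6787 UMIs, and the part of depth in these ratios was not tested.

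**Figure D3:**
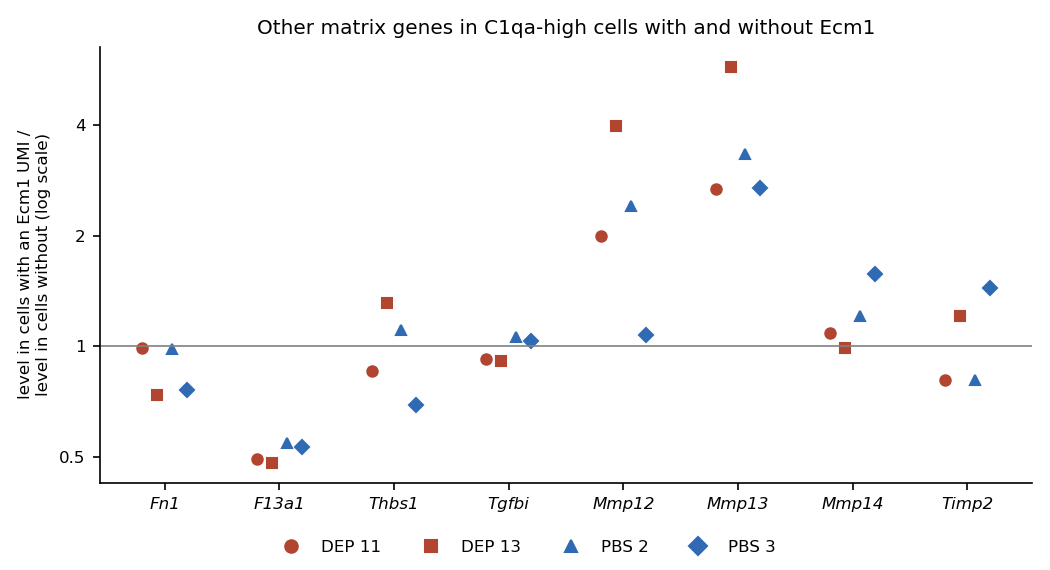
Ratio (log axis) of the level of 8 members in C1qa-high cells with an Ecm1 UMI to that in cells without one. Points are mice, and the grey line is a ratio of 1. Mmp13 lies at 2.68 to 5.76 and F13a1 at 0.482 to 0.546, whereas Tgfbi, Mmp14 and Timp2 scatter around 1.

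Acp5, a lysosomal acid phosphatase, and Pxdc1 accompanied Ecm1 in the same way: Acp5 was 1.55 to 2.33 fold and Pxdc1 2.23 to 3.25 fold higher in C1qa-high cells with an Ecm1 UMI. Among the clusters kept for analysis, which used these genes and are a description only, 429 cells led by Apol7c, Pxdc1, Cxcl1 and Apol7a held the highest Ecm1 (809 CPM), Mmp12 (137 CPM) and Mmp13 (352 CPM). The second of the kept clusters in Ecm1, Mmp12 and Mmp13 was one of 845 cells led by Lilra5, Dnajb1 and Pmepa1, at 385, 126 and 239 CPM. Of the removed clusters, the stromal one of 3 cells held more Ecm1 (1257 CPM) and Mmp12 (262 CPM), from 24 and 5 UMIs.

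F13a1 was high in 2 clusters led by different genes. It stood at 420 CPM in 559 cells led by Ifitm6, Chil3 and Cd177, genes of monocytes, and at 405 CPM in 106 cells led by Retnla, Lyve1, Cd163 and Folr2, genes known from resident macrophages, which was above the level in each of the removed groups of lymphoid cells. The second cluster also had the highest Timp2 (95.2 CPM). Fn1 was high in the first cluster (390 CPM), which held 46.6% of its UMIs, and lower in the second. Among C1qa-high cells, F13a1 stood at 92.1, 75.1, 101 and 139 CPM in those with a UMI of the folate receptor gene Folr2 and at 25.0, 32.1, 57.0 and 46.7 CPM in those without, a split chosen after the clusters were seen. The values without Folr2 lie within or below the 42.5 to 118 CPM of the removed lymphoid cells, and of those with Folr2 only PBS 3 exceeded that range. Cells with Folr2 made up 12.0% to 15.1% of the class in each mouse.

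The UMIs of the proteases were concentrated in few cells. Of 1968 Mmp12 UMIs, 50% lay in 79 cells (1.82% of those analysed), and a single cell held 94. For Mmp13 the same share lay in 177 cells, for Ecm1 in 381 and for Tgfbi in 823. A level of at least 10 Mmp12 UMIs per 10000 was reached by 0.879%, 1.34%, 0.923% and 1.64% of the cells of DEP 11, DEP 13, PBS 2 and PBS 3, so such cells were present in every mouse.

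Other matrix genes showed both directions. Of a list of 98 further genes for matrix proteins, proteases and inhibitors, 30 passed the filter and were tested between the classes. At an FDR of 5%, 8 were higher and 17 lower in Ly6c2-high cells and 5 did not pass, with a median log2 fold change of -0.38 against 0.0012 over all genes tested. Over all genes 40.0% were called, 20.9% higher and 19.1% lower in Ly6c2-high cells, and DESeq2 called 19 of the 30. Higher in Ly6c2-high cells, with the log2 fold change of each, were Hpse (heparanase, which cleaves heparan sulfate, 2.46), Emilin2 (an elastic fibre glycoprotein, 2.07), Anxa2 (a surface annexin that binds plasminogen, 1.86), Plaur (the urokinase receptor, 0.89), Lgals3 (galectin 3, 0.58) and Srgn (the granule proteoglycan serglycin, 0.57). Higher in C1qa-high cells were, among others, Adamdec1 (a secreted metalloproteinase of gut macrophages, -2.90), Plau (urokinase, -2.87), Mmp2 (gelatinase A, -2.73), Serpinf1 (pigment epithelium-derived factor, -2.50) and Adam19 (a membrane metalloproteinase, -2.05). The urokinase gene and its receptor gene thus had opposite directions: Plau stood at 21.3 to 27.0 CPM in C1qa-high and 2.13 to 5.72 CPM in Ly6c2-high cells, whereas Plaur stood at 43.3 to 79.3 and 83.8 to 126 CPM.

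Exposure was compared over the mice, 2 against 2. Over all analysed cells, edgeR's quasi-likelihood test called 0 of 6607 genes, with 190 at an unadjusted p under 0.05, 13 by its likelihood ratio test and 4 by DESeq2. For the 7 members other than Ecm1 and F13a1 that passed the filter the log2 fold changes of DEP over PBS were -0.15 to 0.24, each with an adjusted p of 0.999. Without PBS 2, Thbs1 passed with a log2 fold change of 0.70 (edgeR adjusted p = 0.0274), and without PBS 3 its sign turned (-0.26). Thbs1 stood at 84.4 and 88.9 CPM in the DEP mice and 107 and 51.9 CPM in the PBS mice, so the PBS mice lay on either side of both DEP mice. Ecm1 was higher in both DEP mice (359 and 436 against 329 and 251 CPM) and F13a1 lower (92.3 and 106 against 123 and 108 CPM), and these were the 2 of 9 members whose groups of mice did not overlap, beside 26.7% of all genes tested. Nothing is read from that count, since the exposure differences of both were known when the genes were chosen. A change in the number of expressing cells and one in RNA per cell cannot be told apart in these sums. The cluster with the highest Ecm1, made with these genes, held 178 of 1138 cells in DEP 11 and 80 of 599 in DEP 13. It held 98 of 1192 cells in PBS 2 and 73 of 1406 in PBS 3, and its part in the Ecm1 level was not tested.

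Ecm1 and F13a1 had opposite orders in the C1qa-high cells. Ecm1 was 502 and 581 CPM in the DEP mice and 403 and 332 CPM in the PBS mice, a log2 difference of 0.57 (SE 0.17). F13a1 was 34.3 and 38.8 CPM in the DEP mice and 65.1 and 58.5 CPM in the PBS mice, a log2 difference of -0.75 (SE 0.19), and Fn1 went the same way (-0.38, SE 0.22). The C1qa-high levels of F13a1 and Fn1 lay within or below those of the removed lymphoid cells (42.5 to 118 and 37.7 to 101 CPM). Neither difference is therefore read as a change in expression, and the source of these levels was not tested. The groups of mice did not overlap for these 3 of 9 members, beside 29.7% of the 7092 genes tested, and nothing is read from this count because the members were chosen with this contrast known. The test called 6 of these 7092 genes (0.0846%). The summed level of the 8 monocyte markers was also lower in the C1qa-high cells of the DEP mice (764 and 594 against 874 and 807 CPM), as was Ly6c2 itself (28.1 and 17.9 against 40.3 and 32.7 CPM), and its part in the values of F13a1 and Fn1 was not tested.

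In the Ly6c2-high cells the order was different. Ecm1 was 70.0 and 62.9 CPM in the DEP mice and 112 and 71.2 CPM in the PBS mice (log2 difference -0.46, SE 0.26), levels within or below the range of the removed lymphoid cells, with DEP 11 and PBS 3 nearly equal. The Ecm1 difference was -0.13 without PBS 2 and -0.71 without PBS 3, and with cells thinned to 1000 UMIs it was 0.38 where the classes were cut again, from 2 to 5 Ecm1 UMIs a mouse, and -0.59 in the original classes. F13a1 overlapped between the groups (274 and 322 against 330.4 and 283 CPM; -0.04, SE 0.20), and Fn1 was higher in the DEP mice (280.8 and 315 against 259 and 231 CPM; 0.28, SE 0.20). Mmp12 was lower (10.7 and 9.54 against 11.4 and 22.9 CPM), a difference that rests on 5 to 29 UMIs a mouse. C1qa was also lower in the Ly6c2-high cells of the DEP mice (749 and 612 against 1076 and 974 CPM) and the summed level of the 8 monocyte markers higher (7935 and 7705 against 7636 and 6623 CPM), and their part in the values of Ecm1 and Fn1 was not tested. The groups did not overlap for 3 of the 9 members tested, beside 28.7% of 5586 genes, and the test called 0 of these genes with 150 at an unadjusted p under 0.05, 4 by the likelihood ratio test and 1 by DESeq2.

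**Figure D4:**
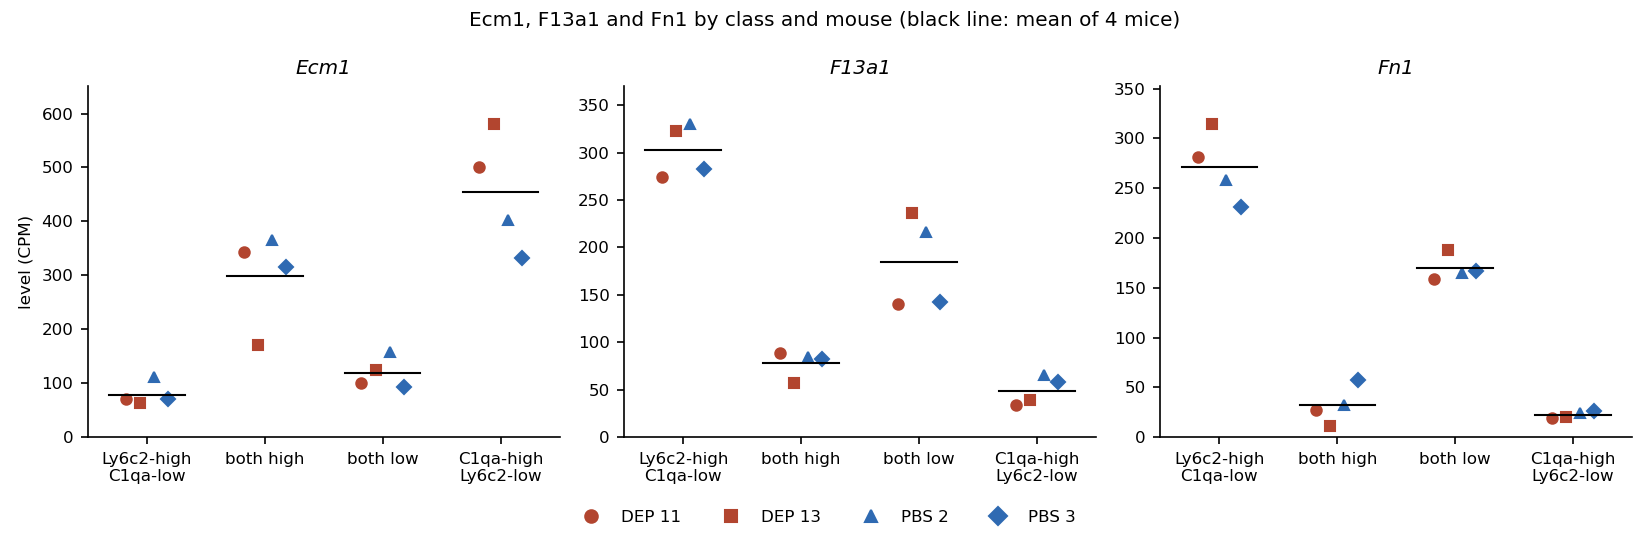
Level (CPM, linear axes from 0) of Ecm1, F13a1 and Fn1 in the 4 classes of cells by mouse. Points are mice and black lines the mean of 4. In C1qa-high cells both DEP mice lie above the PBS mice for Ecm1 and below them for F13a1 and Fn1, and in Ly6c2-high cells both DEP mice lie above the PBS mice for Fn1.

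The difference of the DEP effect between Ly6c2-high and C1qa-high cells, from a fit of 8 sums with the mouse as a block, was -0.99 (SE 0.18) for Ecm1, 0.69 (SE 0.15) for F13a1 and 0.63 (SE 0.19) for Fn1 on the log2 scale. For the other 6 members in the fit it was -0.66 to 0.0051, with Mmp12 lowest (SE 0.41). The fit called 17 of 6794 genes (0.25%). The Ecm1 value depended on how cells were classed. With each cell thinned to 1000 UMIs and the classes cut again it was 0.055, from 2 to 5 Ecm1 UMIs a mouse in 37 to 65 Ly6c2-high cells. With the same thinned counts in the original classes, an alternative added after seeing the data, it was -0.94, from 4 to 26 UMIs a mouse. For F13a1 the thinned values were 0.29 and 0.27, and for Fn1 they were 1.07 and 0.97. Leaving out 1 mouse at a time gave -1.22 to -0.76 for Ecm1, 0.64 to 0.74 for F13a1 and 0.46 to 0.80 for Fn1.

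Further matrix genes of the list of 98 gave 0 calls between exposures in edgeR's quasi-likelihood test, of 28 tested over all cells, 23 in Ly6c2-high and 32 in C1qa-high cells, with median log2 fold changes of 0.068, -0.087 and 0.023 beside -0.0040, -0.0036 and -0.0061 over all genes. Of these, 3, 0 and 5 had an unadjusted p under 0.05, beside 190 of 6607, 150 of 5586 and 270 of 7092 of all genes tested, and neither the likelihood ratio test nor DESeq2 called any. The difference of the DEP effect between the classes passed for 1 of 30 listed genes, Lgals3, a galectin that binds matrix glycoproteins. It stood at 1398 and 1186 CPM in the C1qa-high cells of the DEP mice and at 993 and 1010 CPM in those of the PBS mice, and at 1805, 1644, 1823 and 1615 CPM in Ly6c2-high cells, where the groups overlapped (DEP effect in Ly6c2-high minus that in C1qa-high cells -0.38 on the log2 scale, SE 0.08, edgeR adjusted p = 0.0347). The call was lost without PBS 2 (-0.27, adjusted p = 0.620), without the mouse as a block (-0.37, adjusted p = 0.9998) and with DESeq2 (-0.39, adjusted p = 0.99998). It was also lost with the cuts at the medians, under both ways of thinning, without the highest doublet scores and without the removal of other cell types (adjusted p from 0.0523 to 0.977), where the log2 difference was -0.43 to -0.33 and thus changed little.

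Thbs1, Fn1 and F13a1 were higher in the shallowest than in the deepest barcodes of each mouse. In barcodes with fewer than 500 UMIs, which are too shallow to be analysed as cells, Thbs1 stood at 568, 629, 591 and 386 CPM, against 34.8 to 80.9 CPM in barcodes with at least 10000. It was found in at least 8.37% of these barcodes in each mouse (1614 in all), with up to 11 UMIs in one of them. The platelet list of 8 genes was at 6.11 to 24.6 CPM there against 5.36 to 7.96 CPM in analysed cells, higher in 4 of 4 mice but from 8 UMIs in all. The plasma cell list (7854 to 44501 against 3557 to 9368 CPM), the epithelial list (238 to 555 against 17.0 to 54.7 CPM) and the lists for T and NK cells, B cells, neutrophils, mast cells and stroma were higher in these barcodes of 4 of 4 mice too, and the monocyte, macrophage, dendritic and eosinophil lists were lower in 4 of 4. Their part in the Thbs1 level was not tested. Over all depths the platelet gene Ppbp had no bin mean over 7.12 CPM. Fn1 and F13a1 were lowest and Ecm1 highest in barcodes with at least 10000 UMIs (means of 20.4, 35.4 and 578 CPM), where C1qa was highest too. Under 500 UMIs Fn1 stood at 128, 194, 189 and 217 CPM and F13a1 at 134, 113, 123 and 72.5 CPM. A higher level in shallow barcodes was thus not particular to Thbs1.

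**Figure D5:**
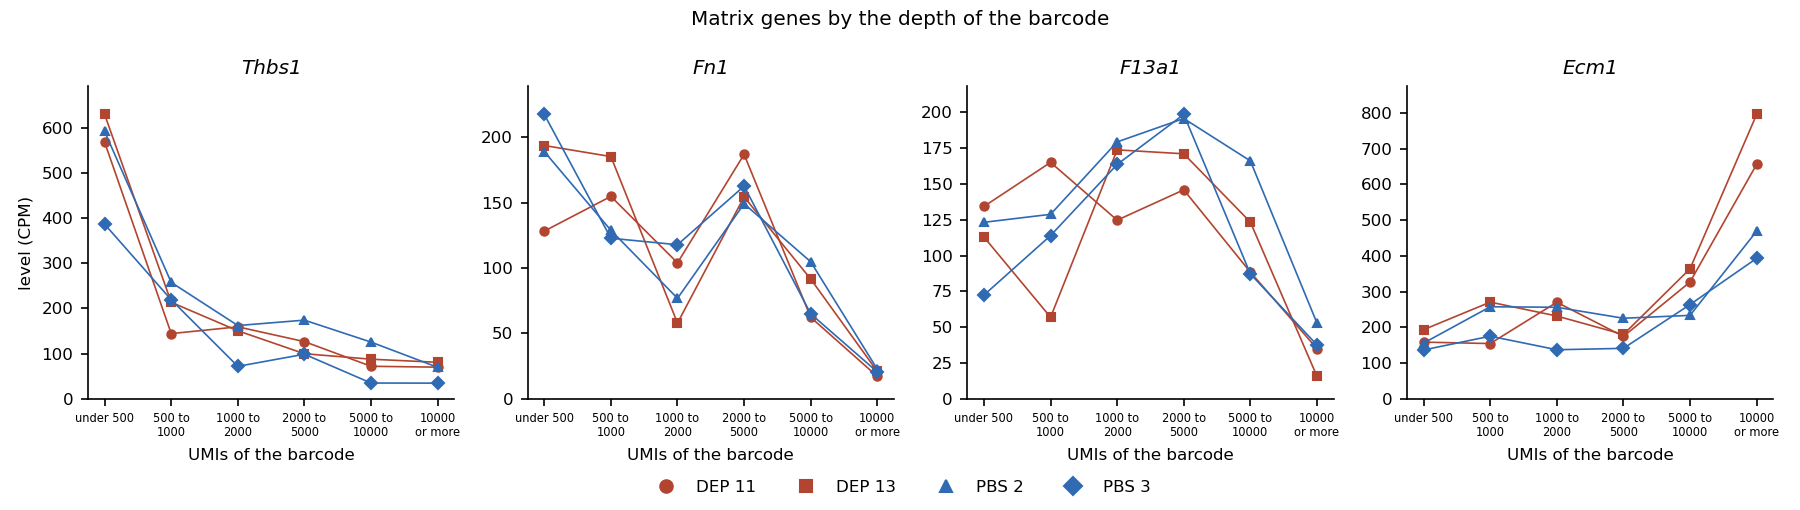
Level (CPM, linear axes from 0) of Thbs1, Fn1, F13a1 and Ecm1 in barcodes grouped by their UMI total, removed cells left out, with a line per mouse. Thbs1 is at 386 to 629 CPM in barcodes under 500 UMIs and at 34.8 to 80.9 CPM in those with at least 10000, and Ecm1 is highest in the deepest barcodes of every mouse.

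The genes whose levels were most like each member were taken over 16 sums (4 mice by 4 classes) among 4083 genes with a mean of at least 20 CPM, as a description, since sums of a mouse share its library and its free RNA. Ecm1 was nearest to Abhd12, Cadm1 and Dnase1l3 (Pearson r of log2 CPM, 0.971, 0.971 and 0.969), Mmp13 to Fcrls (0.969) and Mmp14 to Abhd12 (0.928). F13a1 was nearest to Cd52 and Ifitm6 (0.972 for both), and Fn1 and Vcan both had Anxa2 among their nearest 3 (0.976 and 0.955). Mmp12 was nearest to Hmgn1 (0.930), Timp2 to Scimp (0.922), Tgfbi to Rrbp1 (0.921) and Thbs1 to Prelid1 (0.904).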

How the data were processed

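UMI counts per gene and barcode, whole numbers and not normalized, were deposited by the authors as 1 table of 4 mice. The submitters' processing notes name Cell Ranger, STAR 2.6.1a, R 3.5.1 and the build mm10. The mouse was read from the barcode suffix, and 28339 of 28692 genes received a symbol. Barcodes with at least 1000 UMIs, a log10 gene number of at least 2.5 and up to 7% mitochondrial UMIs were kept (4623 cells), which is more than the study describes. They were divided into 20 Ward clusters (30 principal components of 2000 genes), and a cluster was removed when 3 or more of its top 10 genes marked another cell type. Library totals were 4489342 to 10293703 UMIs. Scrublet (scanpy 1.11.5) called 63 doublets (1.45%), 32 of them in DEP 13. They were kept, and leaving out the 6% of cells with the highest scores was an alternative.

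Classes were cut by Otsu's method on log2 of the level plus 1. UMI counts were summed per mouse and class, and edgeR 4.0.16 (TMM, quasi-likelihood test, R 4.3.3) was run at an FDR of 5% on genes that passed 1 CPM in 2 or more sums and were found in 5% or more of the cells, after the script had been tested on simulated data. DESeq2 1.42.0 was an alternative. Folds and standard errors are on the log2 scale. The mouse was the replicate, so p-values rest on 4 animals, and class sums of a mouse share its library. Shares cover counting error only. Members and gene lists were chosen with earlier results of these data known. Named were the 10 members, up to 6 further matrix genes per direction with the smallest p in the class comparison, the 3 genes most correlated with each member, class genes and markers, and Acp5 and Pxdc1. A gene that this rule selects is not reported here. Genes leading a cluster were named after their values were seen.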

Additional observations from a re-analysis of the deposited data

Results flagged for a closer look

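The log2 fold changes of DEP over PBS for Ecm1 and Fn1 had opposite signs in the Ly6c2-high and the C1qa-high cells, with every DEP mouse on the other side of both PBS mice in each class. The difference between the classes on the log2 scale was -0.99 for Ecm1 and 0.63 for Fn1. No test of either difference is given, because the members were chosen with this contrast known. For each gene, the levels of 1 of the classes lay within or below those of the removed lymphoid cells. These were Ecm1 in Ly6c2-high cells (62.9 to 112 CPM) and Fn1 in C1qa-high cells (19.4 to 26.8 CPM). The sign there is not read as a change in expression. In Ly6c2-high cells the Ecm1 values of DEP 11 and PBS 3 were 70.0 and 71.2 CPM. With cells thinned to 1000 UMIs, the Ecm1 difference between the classes was 0.055 where the classes were cut again, from 2 to 5 Ecm1 UMIs a mouse in Ly6c2-high cells, and -0.94 in the original classes.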

How the results depend on the processing

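Among the values of single members, 600 of 653 alternatives kept their direction and call, or moved by less than the spread between mice. Of the rest, 40 moved by more than that spread, 9 values with a test turned sign, 3 lost and 1 gained a call. Small changes included, 61 of the 653 changed sign, 0 of them in the class comparison, 9 between exposures over all cells, 26 in Ly6c2-high and 8 in C1qa-high cells, and 18 in the difference between classes. In the class comparison, edgeR's quasi-likelihood test called 2716 genes, DESeq2 1797, thinned cells 389 and thinned counts with the classes kept 810 (chosen after seeing the data), where fewer genes passed the filter. Leaving out 1 mouse gave 2245 to 2542. Over all cells, the 0 calls between exposures became 13 with the likelihood ratio test, 4 with DESeq2, 70 without the gene filter, 1 without the highest doublet scores and 20 to 57 without 1 mouse. In Ly6c2-high cells 0 became 4, 1 and 7 under the first 3 of these and 2 to 27 without 1 mouse. In C1qa-high cells 6 became 19, 3 and 71 under the same 3, 3 with RLE size factors, 2 with cuts at the medians, 0 with either form of thinning, 2 with at least 2000 UMIs, 1 without the mitochondrial limit, 3 with other cell types kept and 0 to 24 without 1 mouse. For the difference between classes 17 became 27, 1 and 46 under the same 3, 8 with cuts at the medians, 0 with thinned cells, 1 with thinned counts and the classes kept, 5 with other cell types kept and 10 to 48 without 1 mouse. Apart from fewer genes or samples, the cause was not tested.

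Leaving out a mouse left 1 alone in its arm, assumed to vary like the others. Over all cells the log2 fold changes of DEP over PBS then ranged from -0.035 to 0.18 for Fn1, -0.26 to 0.70 for Thbs1, -0.25 to 0.39 for Tgfbi, -0.40 to 0.068 for Mmp12, -0.13 to 0.53 for Mmp13, -0.34 to 0.63 for Mmp14 and -0.088 to 0.53 for Timp2, so each of these 7 turned sign. The turns came without PBS 2 (Fn1), PBS 3 (Thbs1, Tgfbi, Mmp12 at 0.043, Mmp14), DEP 11 (Mmp12) or DEP 13 (Tgfbi at -0.012, Mmp13, Timp2), and Thbs1 passed at 0.70 without PBS 2.

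Exposed and control mice share no replicate number, so no paired analysis was possible between them because the labels pair no mice. Classes of a mouse were paired by the mouse. Without this replicate block 0 genes were called for the difference between classes and 1925 in the class comparison, where Tgfbi alone of the members lost its call. With 2 mice a group, differences between exposures smaller than the spread between mice were not detectable.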

Other observations

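PBS 3 had the lowest Thbs1 and Tgfbi of the 4 mice in both Ly6c2-high cells (67.2 and 564 CPM) and C1qa-high cells (32.9 and 575 CPM), and the lowest Mmp14 in C1qa-high cells (59.7 CPM). The same mouse had the highest summed level of 13 plasma cell genes over all analysed cells, 9368 CPM against 3557 to 6264 CPM in the others.

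Ecm1 at 10 or more UMIs per 10000 was found in 7.38% and 8.85% of the analysed cells of DEP 11 and DEP 13 and in 5.37% and 2.92% of those of PBS 2 and PBS 3.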
